A study of Mus with 15 samples.

Results

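Inflammasomes are protein platforms that a cell assembles when a sensor detects infection or damage. The platform activates an inflammatory caspase, which matures the cytokines IL-1 beta and IL-18 and cuts a gasdermin, and the freed gasdermin fragment forms pores in the cell membrane that can end in a lytic death called pyroptosis. In skin the machinery is known both in keratinocytes and in the neutrophils and macrophages that enter a wound, and a prolonged inflammatory phase is a recognised feature of slow-healing diabetic wounds.

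The genes described are 9 of the 55657 gene models in the deposited mouse count table, chosen by symbol: the sensors Nlrp3, Nlrc4 and Aim2, the adaptor Pycard, the caspases Casp1 and Casp4, and the gasdermins Gsdmd, Gsdma and Gsdmc. All 9 were among the 17122 genes with enough counts to test. Poly-A RNA was sequenced from 3 groups of 5 libraries. Normal skin came from healthy mice that were not injured and whose treatment is labelled sham; healthy wound was wound tissue from healthy mice after wound surgery; diabetic wound was wound tissue from mice with type I diabetes after the same kind of surgery. Not given in the sources used here are strain, age, sex, time after wounding, wound size and how the mice became diabetic. Uninjured skin of diabetic mice was not analysed here, so an effect of diabetes on unwounded skin and one on the wound cannot be told apart. Nothing in the labels ties each library to its own animal, and the p-values below then measure only the spread between these samples, which may be technical.

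Library totals ran from 15.7 to 17.8 M counts, and levels are given in CPM, counts scaled to library size with TMM factors, of which 1 unit stood for 15 to 18 counts. Keratinocyte markers were present in all 15 libraries, as the skin label implies, but tissue content varied. The mean log2 CPM of 14 suprabasal and cornified keratinocyte markers was 7.71 to 9.89 in normal skin, 6.99 to 9.04 in healthy wounds and 4.46 to 8.68 in diabetic wounds, where libraries 4 and 5 stood apart at 4.46 and 5.22. The mean log2 CPM of 11 tested neutrophil markers was 0.606 to 2.84 in normal skin, highest in library 1, 3.13 to 5.11 in healthy wounds and 3.80 to 7.33 in diabetic wounds, highest in library 5. For 12 monocyte and macrophage markers it was 4.95 to 7.06, 7.03 to 7.72 and 6.13 to 8.23 in the same order. Of 14 hair follicle markers, Krt25, Krt73, Krt31, Krt33a and Krt35 were at 0 counts in all 5 diabetic wound libraries. The mean log2 CPM of the 14 was -2.49 to -1.22 there, and it varied widely within the other groups, from -1.03 to 7.21 in normal skin, where libraries 1 and 2 were low, and from -1.24 to 7.35 in healthy wound, where libraries 1 and 3 were low. In bulk tissue, fewer cells of a type and less RNA per cell cannot be told apart.

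Of the 9 genes, 2 rose in diabetic wound against normal skin, the sensors Nlrp3 and Aim2, and 0 fell. None of the 9 was called in healthy wound against normal skin or in diabetic wound against healthy wound. A gene was called at an adjusted p under 0.05 over all genes tested (edgeR quasi-likelihood test, Benjamini-Hochberg adjustment). The background of calls differed widely: 1.13% of all genes tested were called in healthy wound against normal skin, 19.1% in diabetic wound against normal skin (10.7% called higher) and 9.15% in diabetic wound against healthy wound. The count of 0 of 9 in the first comparison therefore stands beside a rate at which few genes of any kind passed. At an unadjusted p under 0.05 the edgeR test held 2 of the 9 in healthy wound against normal skin, Nlrp3 and Gsdmd, beside 16.3% of all genes, and 1 of the 9, Aim2, in diabetic wound against healthy wound, beside 28.8% of all genes. For the counts of 0, DESeq2 called 1 gene, Nlrp3, in healthy wound against normal skin and 0 in diabetic wound against healthy wound, and limma-voom with sample quality weights called 0 in both. Both comparisons with normal skin share the same 5 control libraries, so their values are not independent of each other.

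**Figure D1:**
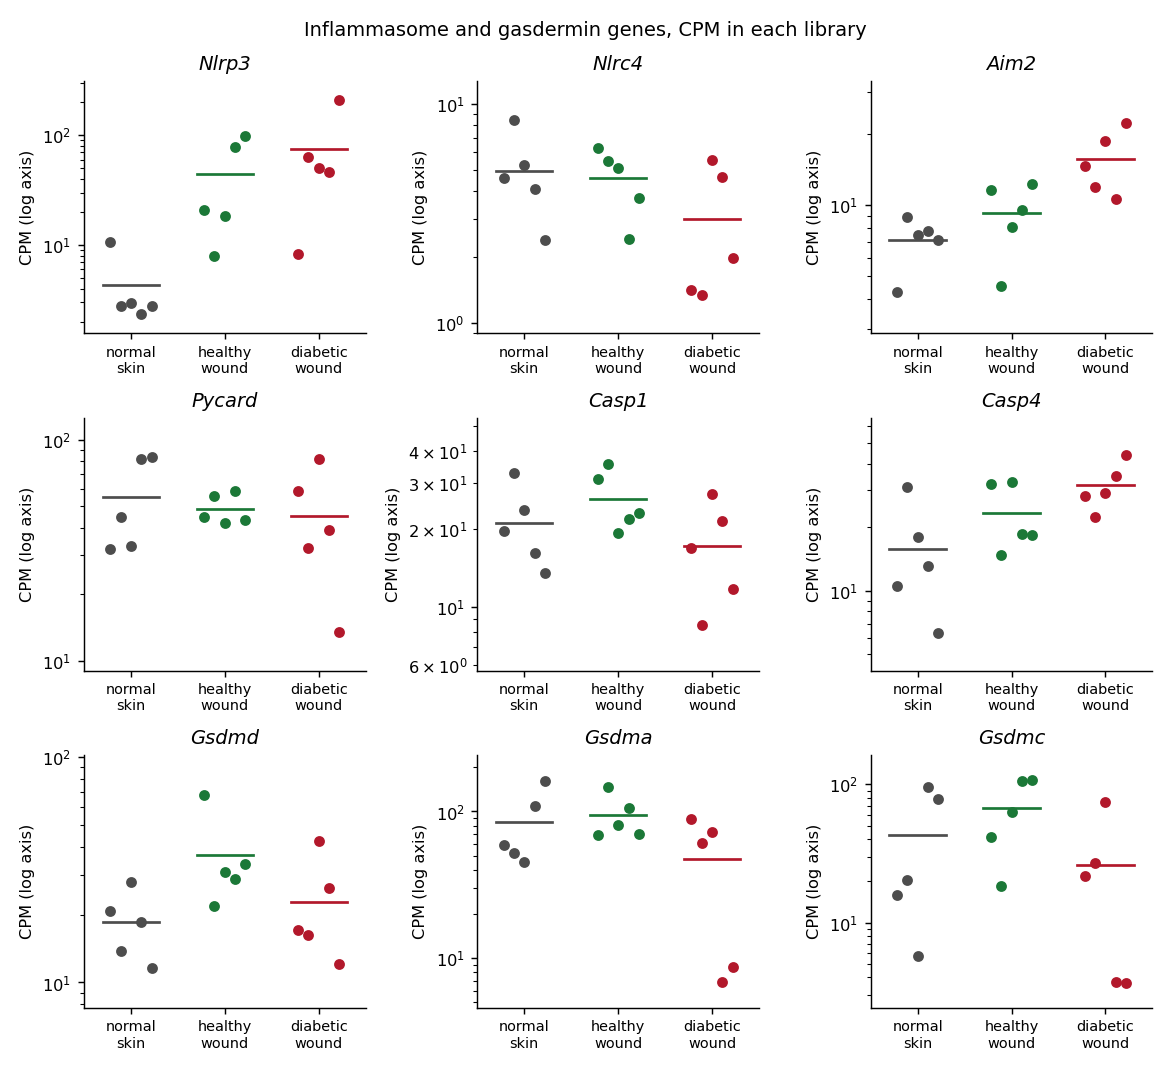
CPM of each gene in each library (points, log axes that differ between panels), with the group mean as a line, for 5 libraries each of normal skin, healthy wound and diabetic wound. Aim2 is the gene whose diabetic wound points all lie above its normal skin points, and Nlrp3 spans the widest range within the wound groups.

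Nlrp3 encodes the sensor that responds to potassium loss and other signs of cell damage. It lies on chromosome 11 at 59541568 to 59566956 on the plus strand (ENSMUSG00000032691, coordinates as the table gives them, genome build not given in the sources used here). In normal skin its level was 10.6, 2.80, 2.95, 2.34 and 2.80 CPM in libraries 1 to 5. In healthy wound it was 21.1, 7.90, 18.3, 78.2 and 98.5 CPM. In diabetic wound it was 8.31, 63.7, 50.7, 46.8 and 209 CPM. Every wound library lay above normal skin libraries 2 to 5, but healthy wound library 2 and diabetic wound library 1 lay below normal skin library 1, so the groups overlapped.

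Nlrp3 averaged 4.30 ± 3.53, 44.8 ± 40.7 and 75.7 ± 77.3 CPM in the order normal skin, healthy wound, diabetic wound (SD, 5 libraries each). Against normal skin the log2 fold change was 4.14 (SE 0.86, edgeR adjusted p = 0.00658) in diabetic wound, a 17.6-fold rise. In healthy wound it was 3.38 (SE 0.84, edgeR adjusted p = 0.0629), which missed the threshold. The 2 wound groups differed by 0.76 (SE 0.76, edgeR adjusted p = 0.533), with a 95% interval from -0.90 to 2.41 that holds both no difference and a severalfold one. The rise in diabetic wound was called whichever library was left out, but its size moved: it was 4.82 without normal skin library 1 and 3.30 without diabetic wound library 5, and 3.25 (edgeR adjusted p = 0.0256) without diabetic wound libraries 4 and 5 together. The difference between the wound groups turned to -0.08 without diabetic wound library 5.

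The healthy wound value of Nlrp3 passed or missed according to the samples and tool used. It passed without healthy wound library 2 (edgeR adjusted p = 0.0427), without diabetic wound library 1 (0.0485) and without diabetic wound library 5 (0.0384). It also passed in a fit of only the 2 groups compared (edgeR adjusted p = 0.038) and with DESeq2 (adjusted p = 0.000497). A pass in diabetic wound and a miss in healthy wound do not by themselves show a difference between the wounds, for which the test is the one given above. The normal skin library highest in Nlrp3, library 1, was also highest in neutrophil markers, and the same held for diabetic wound library 5. It did not hold in healthy wound, where Nlrp3 was highest in library 5, at 98.5 CPM, and neutrophil markers were highest in library 3, which had 18.3 CPM of Nlrp3. The marker means of healthy wound libraries 1, 3, 4 and 5 lay close together, from 4.81 to 5.11. Healthy wound library 2 was lowest of its group in both, at 7.90 CPM and a marker mean of 3.13. Diabetic wound library 1 was too, at 8.31 CPM and 3.80. In normal skin Nlrp3 was lowest in library 4 and the markers in library 5. The part of cell content in the Nlrp3 values was not tested.

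Aim2 encodes a sensor of double-stranded DNA in the cytosol. Its gene model spans chromosome 1 from 173350879 to 173466040 on the plus strand (ENSMUSG00000037860). Normal skin libraries 1 to 5 held 4.31, 8.93, 7.48, 7.80 and 7.11 CPM. Healthy wound libraries held 11.6, 4.56, 8.11, 9.55 and 12.3 CPM. Diabetic wound libraries held 14.6, 11.9, 18.6, 10.6 and 22.3 CPM. All 5 diabetic wound libraries lay above all 5 normal skin libraries, while healthy wound overlapped both.

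Aim2 averaged 7.13 ± 1.72 CPM in normal skin and rose to 15.6 ± 4.81 CPM in diabetic wound (SD, n = 5 each), a log2 fold change of 1.13 (SE 0.30, edgeR adjusted p = 0.0185). It was called with each library left out in turn (log2 fold change 0.97 to 1.24, edgeR adjusted p = 0.012 to 0.0484) and in every other setting run. In healthy wound the mean was 9.22 ± 3.09 CPM, and the log2 fold change against normal skin was 0.37 (SE 0.29, edgeR adjusted p = 0.609). Diabetic wound exceeded healthy wound by 0.76 (SE 0.29), which did not pass after adjustment (edgeR adjusted p = 0.107). Aim2 was the gene of the 9 whose diabetic wound and normal skin libraries did not overlap, a pattern that 11.3% of all genes tested showed in that comparison. In healthy wound against normal skin 0 of the 9 were free of overlap, beside 6.76% of all genes, and in diabetic wound against healthy wound 0 of the 9, beside 9.79%.

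The Aim2 model overlaps Cadm3, an adhesion molecule gene on the opposite strand with 18855 counts over the 15 libraries against 2661 for Aim2. The overlap is one of the gene spans, and whether exons overlap was not tested. The kit leaves the strand unmarked, per the labels' protocol, so reads from any shared exon could not be told apart by strand. Cadm3 moved the other way, with 141 ± 65.7 CPM in normal skin and 45.6 ± 20 CPM in diabetic wound (log2 fold change -1.63, SE 0.36, edgeR adjusted p = 0.00801, n = 5 each). The part of Cadm3 reads in the Aim2 counts was not tested.

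Nlrc4 encodes the platform that NAIP proteins activate when they bind bacterial flagellin or secretion-system parts. It lies on chromosome 17 at 74425438 to 74459142 on the minus strand (ENSMUSG00000039193) and had the fewest reads of the 9, 1059 counts over all libraries. Its level was 4.60, 8.47, 5.27, 4.07 and 2.39 CPM in normal skin, and 6.28, 5.50, 5.08, 2.42 and 3.72 CPM in healthy wound. The diabetic wound libraries had 1.42, 1.35, 5.55, 4.62 and 1.99 CPM. Diabetic wound libraries 1, 2 and 5 lay below every library of the other groups, and libraries 3 and 4 lay among them. Against normal skin the log2 fold change was -0.11 (SE 0.45, edgeR adjusted p = 0.953) in healthy wound and -0.73 (SE 0.45, edgeR adjusted p = 0.263) in diabetic wound, and none of the 3 differences passed. A processed pseudogene model on the same strand, CT033749.1, overlaps Nlrc4 and held 101 counts in all.

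**Figure D2:**
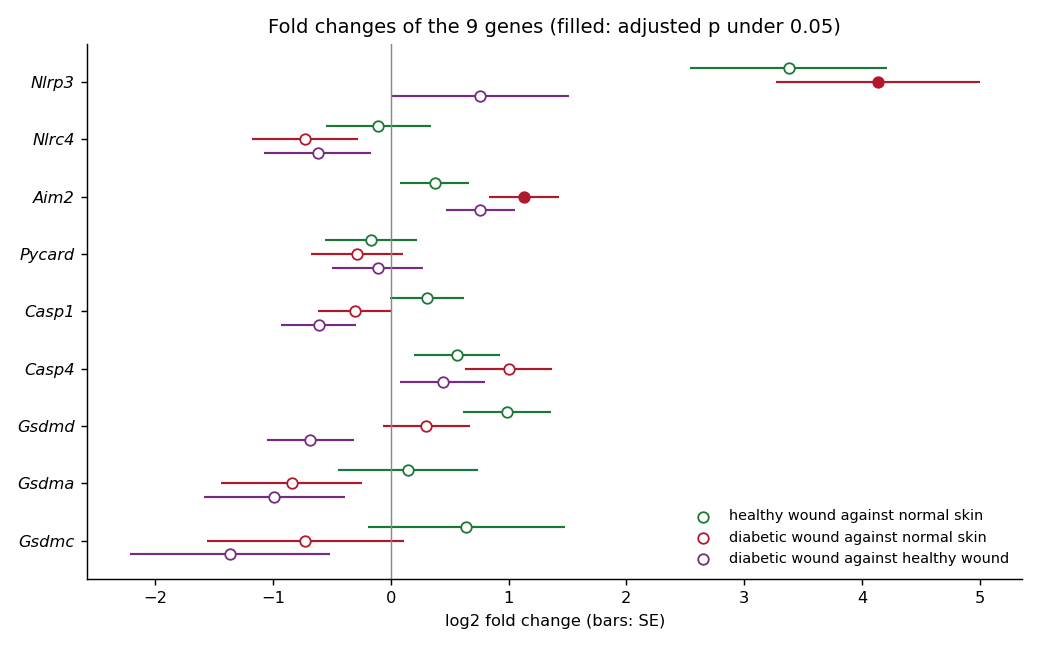
Log2 fold change (horizontal axis) with its SE as a bar for each of the 9 genes in the 3 comparisons, from the edgeR fit over 15 libraries; filled points have an adjusted p under 0.05. The filled points are Nlrp3 at 4.14 and Aim2 at 1.13, both in diabetic wound against normal skin.

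Pycard encodes ASC, the adaptor that links a sensor to caspase-1 and gathers into the single large speck seen in activated cells. It lies on chromosome 7 at 127989708 to 127993867 on the minus strand (ENSMUSG00000030793). Its level was 32.1, 44.9, 33.2, 81.5 and 83.5 CPM in normal skin, and 44.6, 55.9, 42.0, 58.6 and 43.2 CPM in healthy wound. Diabetic wound libraries 1 to 5 had 58.8, 32.5, 82.0, 39.1 and 13.6 CPM. The spread within normal skin and within diabetic wound exceeded any distance between group means, which were 55.0 ± 25.6, 48.9 ± 7.79 and 45.2 ± 26.2 CPM (SD, n = 5 per group). The log2 fold changes were -0.17, -0.28 and -0.11, with edgeR adjusted p = 0.905, 0.627 and 0.871, for healthy wound then diabetic wound against normal skin and for diabetic against healthy wound. The last 2 turned to 0.07 and 0.24 without diabetic wound libraries 4 and 5.

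Casp1 and Casp4 stand next to each other on chromosome 9, both on the plus strand, with 1562 bases between the models. Casp1 (5298517 to 5307265, ENSMUSG00000025888) encodes the caspase of the canonical inflammasome. Casp4 (5308828 to 5336783, ENSMUSG00000033538) encodes the enzyme better known in mice as caspase-11, which senses bacterial lipopolysaccharide in the cytosol directly and cuts gasdermin D.

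Casp1 held 19.7, 33.0, 23.6, 16.1 and 13.6 CPM in normal skin and 31.2, 35.7, 19.2, 21.9 and 23.1 CPM in healthy wound. Values in diabetic wound were 16.9, 8.53, 27.2, 21.4 and 11.7 CPM. The 3 groups overlapped, with diabetic wound libraries 2 and 5 the lowest of all. Its log2 fold change was 0.31 (SE 0.32, edgeR adjusted p = 0.72) in healthy wound and -0.30 (SE 0.32, edgeR adjusted p = 0.514) in diabetic wound against normal skin. Diabetic wound lay below healthy wound by a log2 fold change of -0.61 (SE 0.32, edgeR adjusted p = 0.212), with a 95% interval from -1.30 to 0.08.

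Casp4 held 10.6, 31.1, 17.9, 13.1 and 6.29 CPM in normal skin and 32.2, 14.8, 32.6, 18.5 and 18.4 CPM in healthy wound. The 5 diabetic wound levels were 28.1, 22.3, 29.0, 34.8 and 43.8 CPM. Every diabetic wound library lay above 4 of the 5 normal skin libraries, and normal skin library 2 lay among the diabetic wound values. Its log2 fold change in diabetic wound against normal skin was 1.00 (SE 0.37, edgeR adjusted p = 0.0658), and in healthy wound it was 0.56 (SE 0.37, edgeR adjusted p = 0.498). The diabetic wound value passed without normal skin library 2 (1.41, edgeR adjusted p = 0.0183), with DESeq2 (adjusted p = 0.0407) and with limma-voom (adjusted p = 0.036), and fell to 0.75 (edgeR adjusted p = 0.242) without diabetic wound libraries 4 and 5. The caspase pair thus had point estimates of opposite sign in diabetic wound, neither of which passed.

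Set against each other per kilobase of gene model, Casp4 made up 21.9% ± 4.89 of the Casp1 and Casp4 level in normal skin, 26.8% ± 9.5 in healthy wounds and 44.3% ± 11.6 in diabetic wounds (SD, n = 5 each). Its share was 15.8% to 27.5% in normal skin, 14.3% to 40.6% in healthy wounds and 30.1% to 60.1% in diabetic wounds. All 5 diabetic wound shares lay above all 5 normal skin shares, and they overlapped healthy wound. These shares carry no test, because the pair was set together with results known. They depend on the model lengths, 1497 bases for Casp1 and 3710 for Casp4, and the lengths of the transcripts present were not tested.

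**Figure D3:**
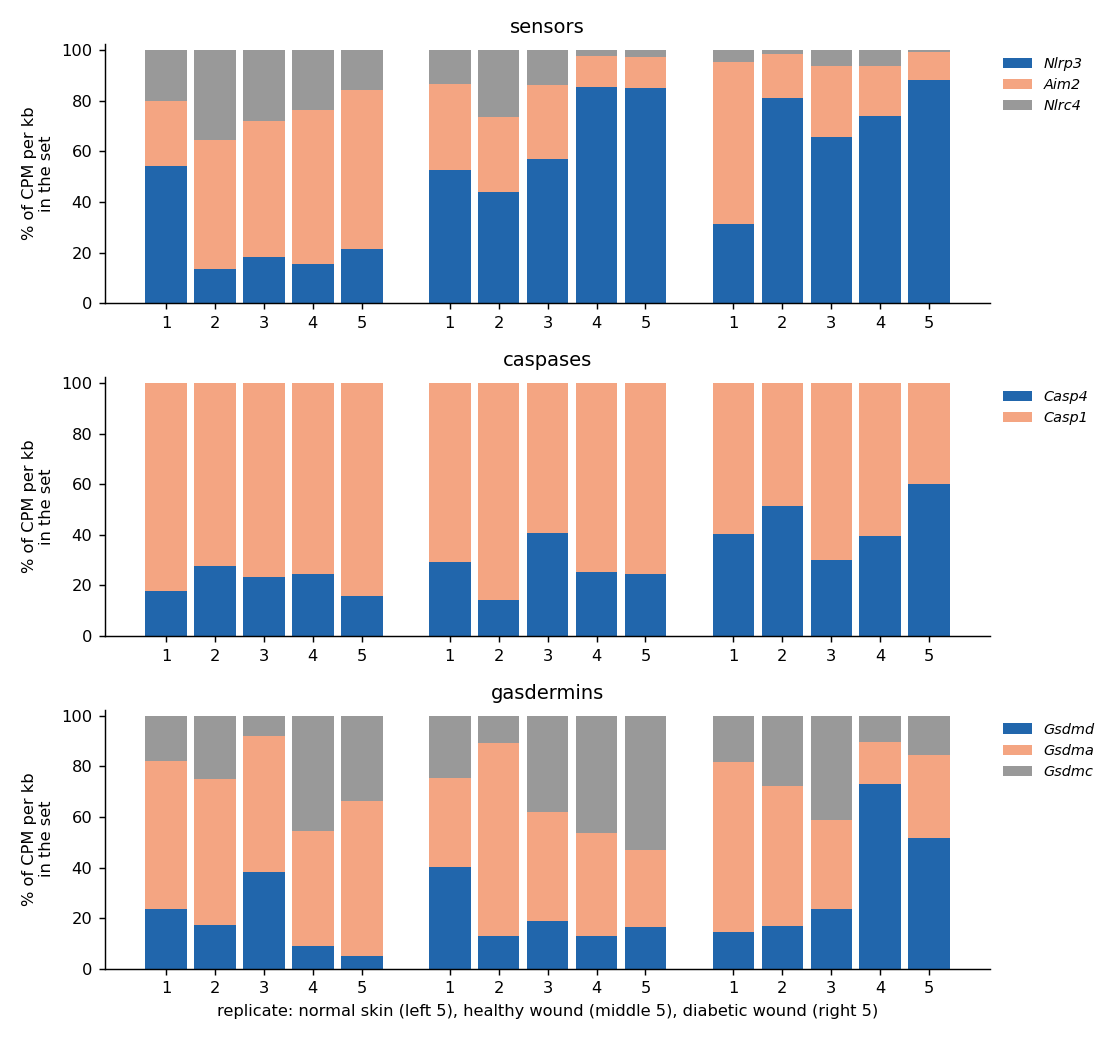
Share of the summed CPM per kilobase (percent, stacked bars) of each gene among the sensors, the caspases and the gasdermins, in each library. Casp4 takes 30.1% to 60.1% of the caspase pair in diabetic wound and 15.8% to 27.5% in normal skin, and Gsdmd takes 73.0% and 51.8% of the gasdermins in diabetic wound libraries 4 and 5.

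Within the sensors the makeup also shifted between groups. Per kilobase, Nlrp3 made up 24.7% ± 16.8 of the sensor level in normal skin, 64.9% ± 19.2 in healthy wounds and 68.2% ± 22.2 in diabetic wounds. Aim2 made up 50.8% ± 14.9, 23.4% ± 10.4 and 28.0% ± 21.0, and Nlrc4 24.6% ± 7.62, 11.7% ± 9.90 and 3.85% ± 2.61 in the same order. The shares of a library add up to the whole, so a lower share need not mean a lower level. The mean share of Aim2 was lower in diabetic wound than in normal skin although its CPM was higher. Like the caspase shares, these carry no test and depend on the model lengths. Diabetic wound library 1, the one with the lowest Nlrp3 of its group, was the wound library in which Aim2 led, at 64.0%.

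Gsdmd encodes gasdermin D, the pore protein that caspase-1 and caspase-11 cut. It lies on chromosome 15 at 75862327 to 75867408 on the plus strand (ENSMUSG00000022575). Its level was 20.7, 13.8, 28.0, 18.5 and 11.6 CPM in normal skin and 67.9, 21.9, 31.1, 28.8 and 33.7 CPM in healthy wound. Diabetic wound gave 17.1, 16.2, 42.5, 26.2 and 12.1 CPM. Healthy wound library 1 was the highest of all, and 4 of 5 healthy wound libraries lay above every normal skin library. The fitted log2 fold change in healthy wound against normal skin was 0.98 (SE 0.37, edgeR adjusted p = 0.194). In diabetic wound it was 0.30 (SE 0.37, edgeR adjusted p = 0.586), which turned to -0.05 without diabetic wound library 3, and the wound groups differed by -0.68 (SE 0.37, edgeR adjusted p = 0.233).

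Gsdma encodes gasdermin A, which is expressed mainly in the epithelium of skin and upper gut and which, in humans, a protease of group A Streptococcus cuts. The model lies on chromosome 11 at 98664351 to 98677708 on the plus strand (ENSMUSG00000017204). Its level was 58.7, 52.4, 45.0, 109 and 161 CPM in normal skin and 68.7, 148, 80.5, 105 and 70.2 CPM in healthy wound. In diabetic wound it was 89.4, 60.7, 72.2, 6.87 and 8.75 CPM. Diabetic wound libraries 1 to 3 lay inside the range of normal skin, and libraries 4 and 5 lay several times below every other library. The log2 fold change was 0.15 (SE 0.59, edgeR adjusted p = 0.952) in healthy wound and -0.84 (SE 0.60, edgeR adjusted p = 0.327) in diabetic wound against normal skin, and -0.99 (SE 0.60, edgeR adjusted p = 0.284) between the wound groups. Without diabetic wound libraries 4 and 5 the last 2 were -0.20 and -0.35.

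Gsdmc encodes a member of the gasdermin C family, whose human protein caspase-8 can cut. The model lies on chromosome 15 at 63775968 to 63808759 on the minus strand (ENSMUSG00000079025). Its level was 15.9, 20.2, 5.73, 96.2 and 78.3 CPM in normal skin and 41.7, 18.2, 63.2, 106 and 108 CPM in healthy wound. The diabetic wound libraries had 21.6, 26.9, 74.7, 3.71 and 3.62 CPM. As with Gsdma, the lowest values were those of diabetic wound libraries 4 and 5, and normal skin libraries 4 and 5 were high. The log2 fold changes of 0.64 (SE 0.83) in healthy wound and -0.73 (SE 0.84) in diabetic wound against normal skin did not pass (edgeR adjusted p = 0.8 and 0.56), nor did -1.37 (SE 0.85) between the wound groups (edgeR adjusted p = 0.296). Without diabetic wound libraries 4 and 5 the diabetic wound value against normal skin was -0.07, and that against healthy wound was -0.71. With 1 library left out they ran from -1.63 to -0.20 and from -2.28 to -1.09, lowest in both without diabetic wound library 3, and none passed.

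Within diabetic wound and within normal skin, the libraries at the extremes of Gsdma and Gsdmc also stood out in suprabasal keratinocyte markers. Diabetic wound libraries 4 and 5, lowest in both genes, had the lowest marker means of all 15 libraries. Normal skin libraries 4 and 5, highest in Gsdma, Gsdmc and Pycard within their group, had its highest marker means at 9.40 and 9.89. In healthy wound Gsdma did not follow the suprabasal markers. Library 2 had its highest level, 148 CPM, with a marker mean of 7.02, and library 4, with the highest marker mean of 9.04, had 105 CPM. The mean log2 CPM of 7 basal keratinocyte markers was highest there in library 2, at 9.51. It was lowest in library 1, at 8.08, which also had the lowest Gsdma of the group, 68.7 CPM. Hair follicle markers were also highest there in library 2, at 7.35, then in library 4, at 5.44. They were lowest in library 3, at -1.24, which had 80.5 CPM of Gsdma. Gsdmc had its lowest healthy wound level, 18.2 CPM, in library 2, where the basal markers were highest. Its highest levels, 106 and 108 CPM in libraries 4 and 5, stood beside the highest suprabasal means of the group, 9.04 and 8.16. Library 1, with the lowest suprabasal mean, 6.99, had 41.7 CPM of Gsdmc. The part of keratinocyte content in these values was not tested. Gasdermin A and C each belong to clusters of closely related mouse genes, and the counting may have divided or dropped reads that fit several copies, so the levels of Gsdma and Gsdmc are uncertain to that degree.

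**Figure D4:**
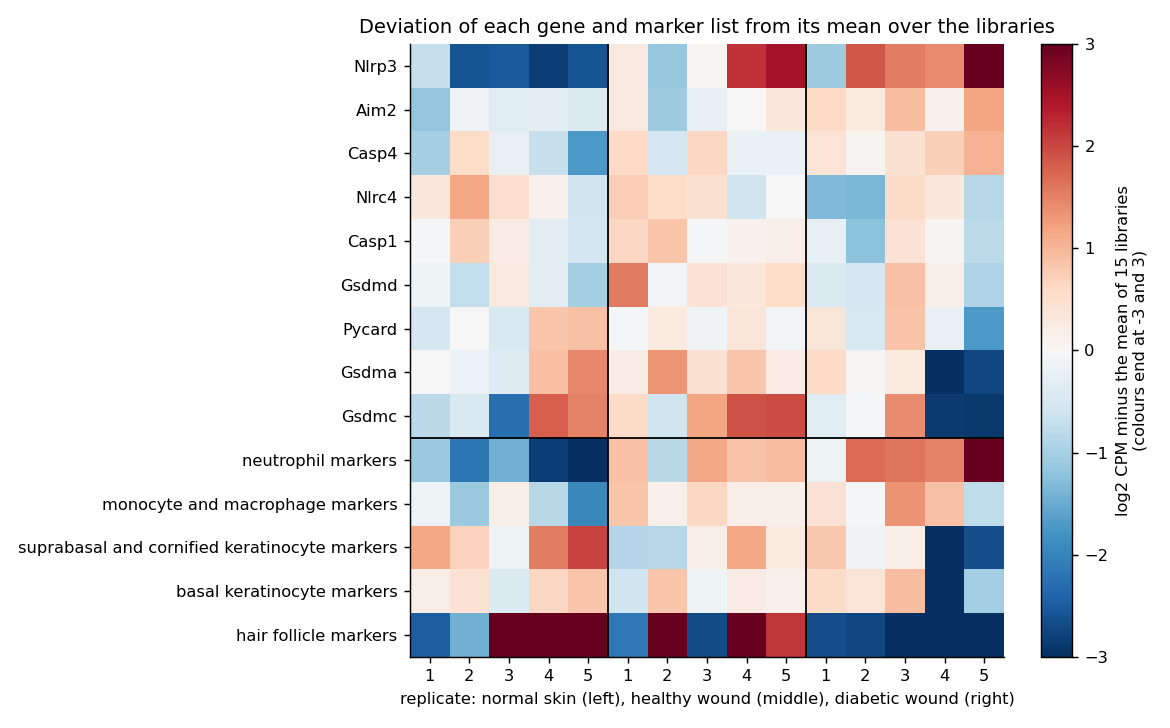
Difference of each gene's log2 CPM from its mean over 15 libraries (colour, limited at -3 and 3), for the 9 genes above the line and the mean of 5 marker lists below it, with libraries 1 to 5 of each group side by side. Gsdma, Gsdmc and the suprabasal keratinocyte markers are all lowest in diabetic wound libraries 4 and 5, and Nlrp3 and the neutrophil markers are both highest in diabetic wound library 5.

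Levels of different genes were compared per kilobase of gene model. A model can be longer than the transcripts present, whose lengths were not tested, so the order is uncertain to that degree. The Pycard model, for one, counts 3800 of the 4160 bases it spans. In normal skin the order of mean levels was led by Gsdma at 31.3 ± 18.1 CPM per kilobase, Gsdmc at 18 ± 17, Pycard at 14.5 ± 6.73 and Casp1 at 14.2 ± 5.08. Gsdmd followed at 7.79 ± 2.70 CPM per kilobase, Casp4 at 4.26 ± 2.57 and Aim2 at 2.04 ± 0.491, while Nlrp3 at 1.06 ± 0.869 and Nlrc4 at 1.05 ± 0.472 were lowest (SD, n = 5). Per kilobase, Gsdma lay above Gsdmc and Pycard in every normal skin library, and above Casp1 in every one except library 2. The means of Gsdmc, Pycard and Casp1 differed from each other by less than their spread, as did those of the last pair. In diabetic wound Nlrp3 had the highest mean, 18.7 ± 19.1 CPM per kilobase, next to Gsdma at 17.5 ± 13.8, and Nlrc4 kept the lowest at 0.631 ± 0.415 (SD, n = 5). The spread of Nlrp3 there was as large as its mean, so its place above Gsdma is not resolved.

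Across the 9 genes the median log2 fold change was 0.37 in healthy wound against normal skin, with 7 of 9 positive, beside a median of 0.01 over all genes tested. In diabetic wound against normal skin it was -0.28 with 4 of 9 positive, and in diabetic wound against healthy wound -0.61 with 3 of 9 positive, beside medians of -0.01 and -0.02 over all genes. The genes therefore did not move as a block: in diabetic wound Nlrp3 and Aim2 rose while the other 7 ranged from -0.84 to 1.00 and did not pass.

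Around the 9 genes stand others of the same pathway, of which 63 were listed, 60 were found in the table and 52 had enough counts to test. In healthy wound against normal skin 2 of 52 rose and 0 fell, in diabetic wound against normal skin 6 rose and 2 fell, and in diabetic wound against healthy wound 3 rose and 2 fell (adjusted p under 0.05). These counts stand beside the same background rates as those of the 9 genes, and they moved with the tool and the libraries. In healthy wound against normal skin the 2 calls became 7 with DESeq2, 8 with limma-voom, 5 in a fit of only the 2 groups, 0 with no low-count filter, and 0 to 4 with 1 library left out, where 0 followed from leaving out any of normal skin libraries 1, 2, 4 and 5 or healthy wound libraries 1, 3 and 5. In diabetic wound against normal skin the 8 calls became 15 with DESeq2 and 6 to 11 with 1 library left out. In diabetic wound against healthy wound the 5 calls became 12 with DESeq2, 16 with limma-voom and 3 with no filter. With 1 library left out they ran from 2, without healthy wound library 1 or 5 or diabetic wound library 2, to 14, without diabetic wound library 3.

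**Figure D5:**
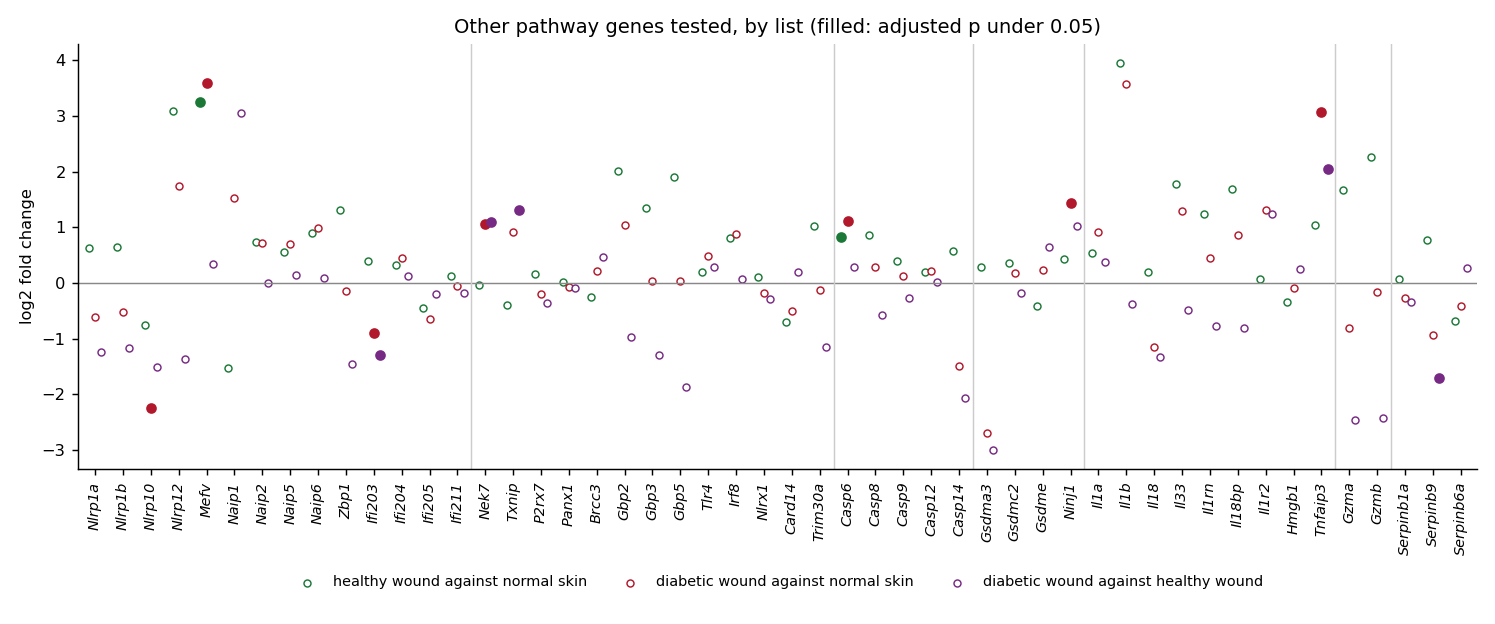
Log2 fold change (vertical axis) of other pathway genes tested, grouped by list along the horizontal axis, in the 3 comparisons; filled points have an adjusted p under 0.05. Mefv lies at 3.25 and 3.59 in the 2 comparisons with normal skin, and Il1b lies as high with open points.

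Among 14 other sensors tested, Mefv, the gene of pyrin, which senses the action of certain bacterial toxins, rose in both wound groups. Its mean was 2.21 ± 1.43 CPM in normal skin, 21.0 ± 7.79 CPM in healthy wounds and 26.8 ± 20.1 CPM in diabetic wounds (SD, n = 5 each). Its log2 fold change was 3.25 (SE 0.64, edgeR adjusted p = 0.0322) in healthy wound and 3.59 (SE 0.65, edgeR adjusted p = 0.00363) in diabetic wound. The call in healthy wound was lost without any 1 of normal skin libraries 1, 2, 4 and 5 or healthy wound libraries 1, 3 and 5 (edgeR adjusted p up to 0.084), and that in diabetic wound was kept throughout. Nlrp10, an NLR gene of the epidermis, fell by 2.25 on the log2 scale in diabetic wound against normal skin, from 44.6 ± 13.2 to 9.34 ± 8.80 CPM (edgeR adjusted p = 0.0424). Its lowest values, 0.791 and 0.422 CPM, were those of diabetic wound libraries 4 and 5, without which the log2 fold change was -1.55, and its call was lost in 10 of the 15 fits that left out 1 library: any of normal skin libraries 1, 2, 4 and 5, any healthy wound library, or diabetic wound library 2.

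Ifi203, an interferon-inducible relative of Aim2, fell in diabetic wound against both other groups. It had 56.7 ± 17.0 CPM in normal skin, 74.5 ± 20.6 CPM in healthy wounds and 30.2 ± 8.59 CPM in diabetic wounds (SD, n = 5 each). The fitted log2 fold change of diabetic wound was -0.91 (edgeR adjusted p = 0.0265) against normal skin and -1.30 (edgeR adjusted p = 0.0161) against healthy wound. The first call was lost without normal skin library 2 or 4 or diabetic wound library 1 or 2 (edgeR adjusted p up to 0.0673). Ifi203 belongs to a cluster of similar genes, so its counts are uncertain in the same way as those of the gasdermins.

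Nek7, the kinase that NLRP3 needs to assemble, was higher in diabetic wound than in both other groups. Its level was 129, 140, 113, 135 and 111 CPM in normal skin and 114, 117, 133, 124 and 124 CPM in healthy wound. Diabetic wound libraries 1 to 5 had 258, 380, 134, 251 and 279 CPM. Diabetic wound library 3 lay at the level of the other groups, and the remaining 4 lay far above them. The log2 fold change was 1.05 (SE 0.21, edgeR adjusted p = 0.00505) against normal skin and 1.09 (SE 0.21, edgeR adjusted p = 0.014) against healthy wound, and both were called whichever library was left out. In healthy wound against normal skin it was -0.04 (SE 0.20, edgeR adjusted p = 0.963).

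Txnip, whose protein binds thioredoxin, is induced by glucose and has been reported to bind NLRP3, had 436 ± 178 CPM in normal skin, 331 ± 78.6 CPM in healthy wounds and 824 ± 432 CPM in diabetic wounds (SD, n = 5 each). Diabetic wound exceeded healthy wound by 1.32 (SE 0.36, edgeR adjusted p = 0.0365), a call lost without any 1 of the healthy wound libraries or diabetic wound libraries 1, 2 and 5. The other 11 genes of sensor activation and regulation tested, among them P2rx7, Panx1 and Gbp5, were not called in any comparison.

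Of 7 other caspases tested, 2 rose and 0 fell in diabetic wound against normal skin, among them the apoptotic Casp6, by 1.11 (SE 0.19, edgeR adjusted p = 0.00301). Casp6 rose in healthy wound too, by 0.83 (SE 0.19, edgeR adjusted p = 0.0494), a value at the threshold that was lost without any 1 of the 10 libraries compared. Its CPM was 10.8 to 17.4 in normal skin, 22.6 to 27.2 in healthy wounds and 21.9 to 40.5 in diabetic wounds, so no wound library reached down to normal skin. Casp8, which can cut gasdermins C and D, had 34.3 ± 9.05, 62.4 ± 7.63 and 42.1 ± 22.2 CPM in the 3 groups in the same order, with log2 fold changes of 0.86 and 0.29 against normal skin (edgeR adjusted p = 0.15 and 0.496) and -0.57 between the wound groups (edgeR adjusted p = 0.21). The healthy wound value passed with limma-voom (adjusted p = 0.016) and in a fit of only the 2 groups (edgeR adjusted p = 0.0341). The difference between the wound groups passed with limma-voom (-0.97, adjusted p = 0.0123) and without diabetic wound library 3 (-0.89, edgeR adjusted p = 0.0321).

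Among the other gasdermins most copies were barely detected. Gsdma2, Gsdmc3 and Gsdmc4 had 77, 5 and 43 counts over the 15 libraries and were not tested. Gsdma3, the gasdermin A copy known from mouse alopecia mutants, had 2.09 ± 1.35 CPM in normal skin, 2.56 ± 4.45 CPM in healthy wounds and 0.316 ± 0.299 CPM in diabetic wounds (SD, n = 5 each), and its log2 fold change of -2.70 in diabetic wound against normal skin did not pass (edgeR adjusted p = 0.077). Gsdmc2 stayed near 1 CPM, with means of 1.10, 1.41 and 1.24 CPM in the 3 groups. Gsdme, the gene of gasdermin E, had 10.4 ± 5.24, 7.84 ± 2.90 and 12.2 ± 3.51 CPM, and none of its 3 differences passed (edgeR adjusted p = 0.621, 0.643 and 0.215). The Gsdme model overlaps that of Mpp6, a gene on the opposite strand. Mpp6 had 56.7 ± 13.2, 43.8 ± 8.87 and 71 ± 13 CPM. In healthy wound and diabetic wound against normal skin, then diabetic against healthy wound, its log2 fold changes were -0.371, 0.324 and 0.695. The last was called (edgeR adjusted p = 0.0418), and the others were not (edgeR adjusted p = 0.383 and 0.253). The log2 fold changes of Gsdme, at -0.41, 0.23 and 0.64, had the same signs. As for Aim2, whether exons overlap was not tested, nor was the part of Mpp6 reads in the Gsdme counts.

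Ninj1 encodes the membrane protein that ruptures the plasma membrane after gasdermin pores have formed. It held 127, 44.3, 198, 122 and 74.5 CPM in normal skin and 138, 115, 152, 166 and 188 CPM in healthy wound. Values in diabetic wound were 372, 272, 378, 338 and 180 CPM. Diabetic wound libraries 1 to 4 lay above all libraries of the other groups, and library 5 lay inside their range. Ninj1 rose by 1.44 (SE 0.33, edgeR adjusted p = 0.00957) in diabetic wound against normal skin and was called whichever library was left out. Against healthy wound the value was 1.02 (SE 0.32, edgeR adjusted p = 0.0573), which passed with DESeq2 (adjusted p = 0.0174), with limma-voom (adjusted p = 0.0132), in a fit of the wound groups alone (edgeR adjusted p = 0.0377) and without normal skin library 2 (edgeR adjusted p = 0.0258) or 3 (edgeR adjusted p = 0.0434).

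The cytokines that inflammasomes mature did not pass in any comparison. Il1b, the gene of IL-1 beta, held 87.1, 14.3, 6.07, 1.78 and 2.68 CPM in normal skin and 81.1, 16.2, 128, 771 and 730 CPM in healthy wound. The 5 diabetic wound levels were 34, 201, 237, 124 and 732 CPM. As for Nlrp3, normal skin library 1 was the highest of its group and healthy wound library 2 and diabetic wound library 1 were the lowest of theirs. Its log2 fold change against normal skin was 3.95 (SE 1.24, edgeR adjusted p = 0.121) in healthy wound and 3.57 (SE 1.22, edgeR adjusted p = 0.0519) in diabetic wound. The second passed without normal skin library 1 (5.42, edgeR adjusted p = 0.016), without healthy wound library 2 (edgeR adjusted p = 0.0424) and without diabetic wound library 1 (edgeR adjusted p = 0.0458), and DESeq2 called both.

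Il18, which keratinocytes express without stimulation, had 28.9 ± 5.76 CPM in normal skin, 33.1 ± 12.5 CPM in healthy wounds and 13.1 ± 9.76 CPM in diabetic wounds (SD, n = 5 each). Its log2 fold change in diabetic wound was -1.14 (SE 0.47, edgeR adjusted p = 0.0933) against normal skin and -1.34 (SE 0.47, edgeR adjusted p = 0.0791) against healthy wound. Its lowest values, 4.87 and 3.02 CPM, were again those of diabetic wound libraries 4 and 5. Without these 2 libraries the values were -0.59 (edgeR adjusted p = 0.247) and -0.79 (edgeR adjusted p = 0.173). Both passed without diabetic wound library 3 (edgeR adjusted p = 0.0357 and 0.0278) and with DESeq2 (adjusted p = 0.0416 and 0.0243).

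Among products and antagonists, the gene that rose was Tnfaip3, whose protein A20 restrains NF-kappa B signalling and NLRP3 activity. It had 20.4 ± 8.28 CPM in normal skin, 41.9 ± 11.4 CPM in healthy wounds and 173 ± 180 CPM in diabetic wounds (SD, n = 5 each), with diabetic wound library 5 at 487 CPM. The fitted log2 fold change in diabetic wound was 3.08 (SE 0.53, edgeR adjusted p = 0.00304) against normal skin and 2.05 (SE 0.51, edgeR adjusted p = 0.0287) against healthy wound. Without diabetic wound library 5 they were 2.21, still called, and 1.17 (edgeR adjusted p = 0.0639). The second call was also lost without any 1 of healthy wound libraries 1, 3, 4 and 5 or diabetic wound library 2.

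Of the protease inhibitors, Serpinb9, which blocks granzyme B, was lower in diabetic wound than in healthy wound by a log2 fold change of -1.70 (SE 0.38, edgeR adjusted p = 0.0204), from 24.1 ± 7.95 to 7.40 ± 4.35 CPM (SD, n = 5 each). The call was lost without healthy wound library 1 or 5 or diabetic wound library 2 (edgeR adjusted p up to 0.0586). Gzma and Gzmb, the genes of the cytotoxic proteases granzyme A and B, were not called in any comparison. Granzyme A cuts human gasdermin B, and granzyme B cuts gasdermin E. Their list, of 4 proteases other than caspases that cut gasdermins, had 2 genes with enough counts to test. The median log2 fold change of those 2 was 1.96 in healthy wound and -0.485 in diabetic wound against normal skin. It was -2.45 in diabetic against healthy wound, so a miss here does not show a steady level.

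For each of the 9 genes the tested genes with the most similar log2 CPM over the 15 libraries were found by Pearson correlation, as a description that carries no test. The libraries share groups, scaling and tissue content, all of which enter these values. Nlrp3 was most like Srgn (r = 0.957, Spearman coefficient 0.964), Cxcl3 (r = 0.956) and Stx11 (r = 0.954). Casp4 was most like Ptprj (r = 0.942), Picalm (r = 0.929) and Sla (r = 0.911), and Gsdmd most like Samhd1 (r = 0.953) and Selplg (r = 0.94). Gsdma was most like the epidermal protease gene Klk7 (r = 0.985, Spearman coefficient 0.979), which is also 1 of the suprabasal markers used above, and like Spint2 (r = 0.98) and Spint1 (r = 0.963). Gsdmc was most like Endou (r = 0.951), Rbp2 (r = 0.947) and Klk8 (r = 0.947).

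The remaining 4 genes had other nearest patterns. Pycard was most like Glod4 (r = 0.94), Ect2 (r = 0.939) and Cdca8 (r = 0.937). Casp1 was most like Ppm1h (r = 0.932), Slc29a3 (r = 0.916) and Mfsd12 (r = 0.904), and Nlrc4 was close to Znfx1 (r = 0.918) and Slc16a10 (r = 0.917). Aim2 had the weakest nearest pattern of the 9, with Helb (r = 0.875), Tmod3 (r = 0.859) and Ccng2 (r = 0.857).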

How the data were processed

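Raw read counts of 15 libraries, whole numbers for each gene model, were used as deposited. Per the labels' protocol the authors selected poly-A RNA, and the library kit leaves the strand unmarked. Not given in the sources used here are the aligner, the counting program, its strand setting and the genome build. Diabetic columns, numbered 5 to 9 in the table, were matched to replicates 1 to 5 through the sample descriptions.

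Differences came from edgeR 4.0.16 and its quasi-likelihood test (robust, TMM scaling, filterByExpr) in R 4.3.3, in 1 fit over 3 groups with 12 residual degrees of freedom, on 17122 genes, with Benjamini-Hochberg adjustment over all of them. CPM used TMM-scaled library sizes and log2 CPM a prior count of 2. Each edgeR SE was derived as the absolute log2 fold change over the square root of the test's F statistic. Intervals are 95%, from that SE and 12 degrees of freedom. The test uses its own degrees of freedom, so an interval need not match its p-value exactly. The chi-square per degree of freedom between any 2 libraries of a group was at least 42.29 (normal skin), 38.82 (healthy wound) and 76.24 (diabetic wound), so no 2 libraries agreed within counting noise. The procedure was tested on simulated data.

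All 9 genes are named. Of 7 pathway lists, genes called (at most 5 per list and comparison) and 11 chosen genes are named, and P2rx7, Panx1, Gbp5, Gzma and Gzmb were named after their values were seen. Patterns were compared among genes with a mean of at least 5 CPM. Some genes that these rules name are not reported here. Members and lists were chosen with earlier results of these data known.

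Alternatives were other scalings (RLE, upper quartile), no or a stricter low-count filter, DESeq2 1.42.0, limma-voom (limma 3.58.1), a fit of only the groups compared, the replicate number as a block, and leaving out libraries.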

Additional observations from a re-analysis of the deposited data

Results flagged for a closer look

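In 25 genes, each looked at in 3 groups of 5 libraries, the following 9 of 75 groups had 1 library far from the others, by the distance to its nearest neighbour over the range of the group. For normally distributed values chance marks about 1 group in 20, a rate that need not hold for CPM, and the genes are not independent of each other. All 9 libraries marked were at the high end of their group. Nlrp3 stood at 10.6 CPM in normal skin library 1 (next highest 2.95 CPM) and at 209 CPM in diabetic wound library 5 (next highest 63.7 CPM). Gsdmd stood at 67.9 CPM in healthy wound library 1 (next highest 33.7 CPM). Il1b stood at 87.1 CPM in normal skin library 1, the same library as for Nlrp3, and Tnfaip3 at 487 CPM in diabetic wound library 5, again the same library as for Nlrp3. Gsdma3 stood at 4.43 CPM in normal skin library 5 and at 10.5 CPM in healthy wound library 2, where hair follicle markers had the highest mean log2 CPM of all libraries at 7.35. Gsdme stood at 19.6 CPM in normal skin library 2 and at 18.2 CPM in diabetic wound library 5.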

How the results depend on the processing

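The calls of Nlrp3 and Aim2 in diabetic wound against normal skin kept their direction and stayed past the threshold in all 9 other settings and with each of the 15 libraries left out. Counts of calls over all genes moved more. In healthy wound against normal skin, 193 genes became 91 with no low-count filter, 124 with the stricter filter, 1147 with DESeq2, 1882 with limma-voom, 537 in a fit of only the 2 groups, 91 with the replicate block, 605 without diabetic wound libraries 4 and 5 together (a setting chosen after seeing the data), and 3 to 392 with 1 library left out. In diabetic wound against normal skin, 3272 became 2138 with no filter, 4811 with DESeq2, 4039 with limma-voom and 1430 with only the 2 groups. The same count was 2207 with the replicate block, 1994 without diabetic wound libraries 4 and 5 and 2029 to 3824 with 1 library left out. In diabetic wound against healthy wound, 1567 became 574, 3174 (DESeq2), 4071 (limma-voom), 801 (2 groups), 173 (replicate block), 658 (without diabetic wound libraries 4 and 5) and 230 to 2925. Of the 9 genes, Nlrp3 was called in healthy wound against normal skin, making 1, with DESeq2, with only the 2 groups and without diabetic wound libraries 4 and 5, and 0 to 1 with 1 library left out. The causes were not tested.

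The labels do not say that a replicate number pairs samples. Deviations of same-numbered libraries correlated above 0.1 in 4 of 5 pairs, not in all, between healthy wound and normal skin (-0.0539 to 0.238), and mostly negatively in the other comparisons, so the block was kept as an alternative. With the replicate block 0, 2 and 0 of the 9 genes were called, as without it. Of the other pathway genes, 0 of 2 calls in healthy wound and 1 of 5 between the wound groups then remained past the threshold: edgeR adjusted p was 0.051 for Mefv and 0.0615 for Casp6 in healthy wound, 0.0699 for Nlrp10 and 0.0584 for Ifi203 in diabetic wound against normal skin, and 0.059 for Txnip, 0.0606 for Tnfaip3, 0.051 for Ifi203 and 0.0508 for Serpinb9 between the wound groups.

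Values that changed sign were all below the call threshold. With limma-voom these were Nlrc4 (0.042), Pycard (0.040) and Gsdma3 (-1.17) in healthy wound and Gsdmd (-0.080), Gsdmc2 (-0.35) and Casp8 (-0.11) in diabetic wound against normal skin. With the replicate block they were Gsdma3 (-1.03, healthy wound) and Gsdmc2 (-0.00289, diabetic wound) against normal skin. Without diabetic wound libraries 4 and 5, Pycard became 0.073 against normal skin, and Nlrp3, Pycard and Gsdmc2 became -0.13, 0.24 and 0.55 against healthy wound. With 1 library left out, log2 fold changes in healthy wound against normal skin ran from -0.28 to 0.18 for Nlrc4, -0.30 to 0.031 for Pycard, -0.072 to 0.51 for Gsdma, -0.038 to 0.35 for Il18, -1.87 to 0.77 for Gsdma3 and -0.077 to 0.010 for Nek7. In diabetic wound against normal skin they ran from -0.051 to 0.50 for Gsdmd, -0.60 to 0.50 for Gsdmc2 and -0.025 to 0.45 for Casp8, and against healthy wound from -0.078 to 1.29 for Nlrp3, -0.44 to 0.12 for Pycard, -1.21 to 0.15 for Il1b and -0.97 to 0.13 for Gsdmc2.

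Gsdma2, Gsdmc3 and Gsdmc4, with 77, 5 and 43 counts, were too low to test. In simulated data of 16814 genes some were changed in diabetic wound against normal skin. Of these, 8 of 97 changed by a log2 fold change of 1 and 61 of 98 changed by 2 were called. So few changed genes make the adjustment stricter than in the data, where 3272 of 17122 were called. The simulated rates can therefore understate how often such a change is found here. A miss near 1 still does not show that a gene stayed level.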
